A study of Mus musculus with 6 samples.

Results

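The genes Sox2, Pax3, Id1, Id2, Id3, Id4, Notch1, Hes1, Hey1 and Hey2, which restrain Schwann cell differentiation or report Notch signalling, were followed in sciatic nerve. They were found as the probes, control spots apart, that the array files name by these symbols, which gave 12 probes for 10 of 10 genes, among 30325 names on the array. Notch1 and Pax3 have 2 probes each and the other members 1. Nerves came from mice aged 1 month in 2 groups of 3 independent pools, OGT_SCKO and littermate controls (Ctrl), all on a background the labels write as C56 BL6. OGT_SCKO mice lack, in Schwann cells by the series title, OGT, the enzyme that attaches the sugar O-GlcNAc to nuclear and cytoplasmic proteins. The promoter that drives the deletion, the deleted part of Ogt and the number of animals in a pool are not given in the sources used here. The title asks how this modification bears on JUN, a transcription factor of injured Schwann cells, and on remyelination.

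Schwann cells are the glia that wrap peripheral axons in myelin. While they are immature, and again after injury, a set of inhibitors holds back the myelin programme. Among them are the transcription factors Sox2 and Pax3, the Id proteins, which bind basic helix-loop-helix (HLH) factors and keep them off DNA, and the Notch receptor. A cut Notch receptor enters the nucleus, joins the DNA-binding protein RBPJ and switches on Hes and Hey genes, which encode repressors. Notch signalling is also central to blood vessels, where Hey1, Hey2 and Notch ligands are expressed, so that whole nerve RNA carries more than the Schwann cell's share. In such bulk RNA, fewer cells of a type and less RNA per cell cannot be told apart.

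The promoter sequences are shown to set the Id genes, of which Id2 changed, beside Hey2, a direct Notch target in textbook accounts. RefSeq promoters (GRCm38.p6) were matched for 6 of the 10 members. Each run covers 250 bases before and 20 bases from the annotated start, read 5′ to 3′ on the gene's own strand. Capitals mark the RBPJ core TGGGAA on either strand (TTCCCA on the other) and the E-box CANNTG, the element bound by the HLH factors that Id proteins block.
Id2: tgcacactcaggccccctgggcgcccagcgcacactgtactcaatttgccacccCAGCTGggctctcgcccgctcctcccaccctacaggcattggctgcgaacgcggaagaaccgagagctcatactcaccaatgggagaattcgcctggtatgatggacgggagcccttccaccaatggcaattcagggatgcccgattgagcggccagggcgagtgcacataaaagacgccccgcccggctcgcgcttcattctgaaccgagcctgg
Id3: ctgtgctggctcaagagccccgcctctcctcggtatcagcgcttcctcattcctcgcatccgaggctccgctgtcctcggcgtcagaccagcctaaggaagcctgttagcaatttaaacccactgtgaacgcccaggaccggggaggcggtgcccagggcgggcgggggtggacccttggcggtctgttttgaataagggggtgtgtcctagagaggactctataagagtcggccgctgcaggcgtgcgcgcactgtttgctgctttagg
Id4: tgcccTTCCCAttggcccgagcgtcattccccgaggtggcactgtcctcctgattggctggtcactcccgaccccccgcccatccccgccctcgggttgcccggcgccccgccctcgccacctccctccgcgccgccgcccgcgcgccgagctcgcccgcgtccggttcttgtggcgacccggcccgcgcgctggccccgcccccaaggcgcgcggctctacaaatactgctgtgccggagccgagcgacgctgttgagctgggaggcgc
Hey2: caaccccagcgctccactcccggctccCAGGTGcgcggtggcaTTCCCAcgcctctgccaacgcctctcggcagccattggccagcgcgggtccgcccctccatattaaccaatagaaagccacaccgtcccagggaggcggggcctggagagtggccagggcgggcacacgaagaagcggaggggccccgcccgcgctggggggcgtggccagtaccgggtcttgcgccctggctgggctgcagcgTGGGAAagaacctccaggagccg
The windows lie at chr12:25096073-25096342 on the minus strand for Id2, chr4:136143572-136143841 on the plus strand for Id3, chr13:48260866-48261135 on the plus strand for Id4 and chr10:30842764-30843033 on the minus strand for Hey2. Hey2 holds the RBPJ core in 2 places, at -207 to -202 and at -3 to 3 around the start, where base 1 is the first transcribed. Id4 holds it once, at -245 to -240. Id2 holds 1 E-box, at -196 to -191, and no RBPJ core. Hey2 also holds 1 E-box, at -223 to -218, and none of these matches overlap. Among 32851 RefSeq promoters cut to the same 270 bases, 23.1% hold the RBPJ core and 68.9% an E-box, so either letter string is common by itself. The AP-1 element TGANTCA, the kind of site JUN binds, was searched too and stands in 7.23% of those promoters and in none of the 6 members' windows. A match is a string of letters, not a bound site.

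Levels are given as log2 of the array's processed signal minus the 75th percentile of that array, so 0 is the 75th percentile and 1 unit is a doubling. Of the 10 members, 6 had a probe that was well above background throughout 1 group or both and entered the test: Id1, Id2, Id3, Id4, Sox2 and Hey1. The other 4, Pax3, Notch1, Hes1 and Hey2, did not. Groups were compared by limma, fitted to all 19058 genes with such a probe, and a gene was called changed at a Benjamini-Hochberg adjusted p under 0.05. At that threshold 23.2% of all genes were called, 11.1% higher and 12.1% lower in OGT_SCKO. Ogt, the deleted gene, was lower in all OGT_SCKO pools and fell by 1.28 on the log2 scale (limma adjusted p = 0.00117), which fits the labels. Of the 4 arrays on slide 1, 3 are OGT_SCKO and 1 is Ctrl 2, and slide 2 holds Ctrl 1 and Ctrl 3. A fit with slide as a block therefore sets OGT_SCKO against Ctrl 2 alone.

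Id2 was the 1 member of 6 tested that changed, and it rose. Id2 is counted among the negative regulators of Schwann cell myelination. Its level was -0.39, 0.86 and 0.64 in OGT_SCKO pools 1, 2 and 3, against -1.47, -1.41 and -1.34 in Ctrl pools 1, 2 and 3. All OGT_SCKO pools lay above all Ctrl pools, the only tested member without overlap, while 45.8% of all genes tested had none in either direction and 20.4% had every OGT_SCKO pool above every Ctrl pool. The Ctrl pools lay close together and the OGT_SCKO pools did not, with pool 1 well below the other two. The mean was 0.37 ± 0.67 in OGT_SCKO and -1.41 ± 0.066 in Ctrl (SD, n = 3 each), a rise of 3.43-fold (95% confidence interval 2.04 to 5.78). The log2 fold change was 1.78 (SE 0.31, limma adjusted p = 0.0101), and 212 genes on the array rose by more. By an exact permutation test (two-sided) p was 0.1, the smallest that 3 against 3 pools allow.

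The call of Id2 ended in the fits that set OGT_SCKO against Ctrl 2 alone, which share 1 estimate close to that of all 6 arrays. In the fit blocked on slide and in that on slide 1 alone, the log2 fold change was 1.78 in both fits, with limma adjusted p = 0.0878 and 0.180. Leaving out any 1 of the 6 arrays kept the call, with limma adjusted p between 0.000957 and 0.0477. The fold was 4.47 without OGT_SCKO 1 and 2.90 without OGT_SCKO 2. Within OGT_SCKO the level of Id2 had the same order as the brightness of the arrays, whose 75th percentile of signal was 3462, 6158 and 4805 in pools 1, 2 and 3, against 4154, 2748 and 4313 in Ctrl pools 1, 2 and 3. Among the Ctrl pools, the dimmest and the brighter arrays gave nearly the same Id2 level, and the part of brightness in the spread of the OGT_SCKO pools was not tested.

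**Figure D1:**
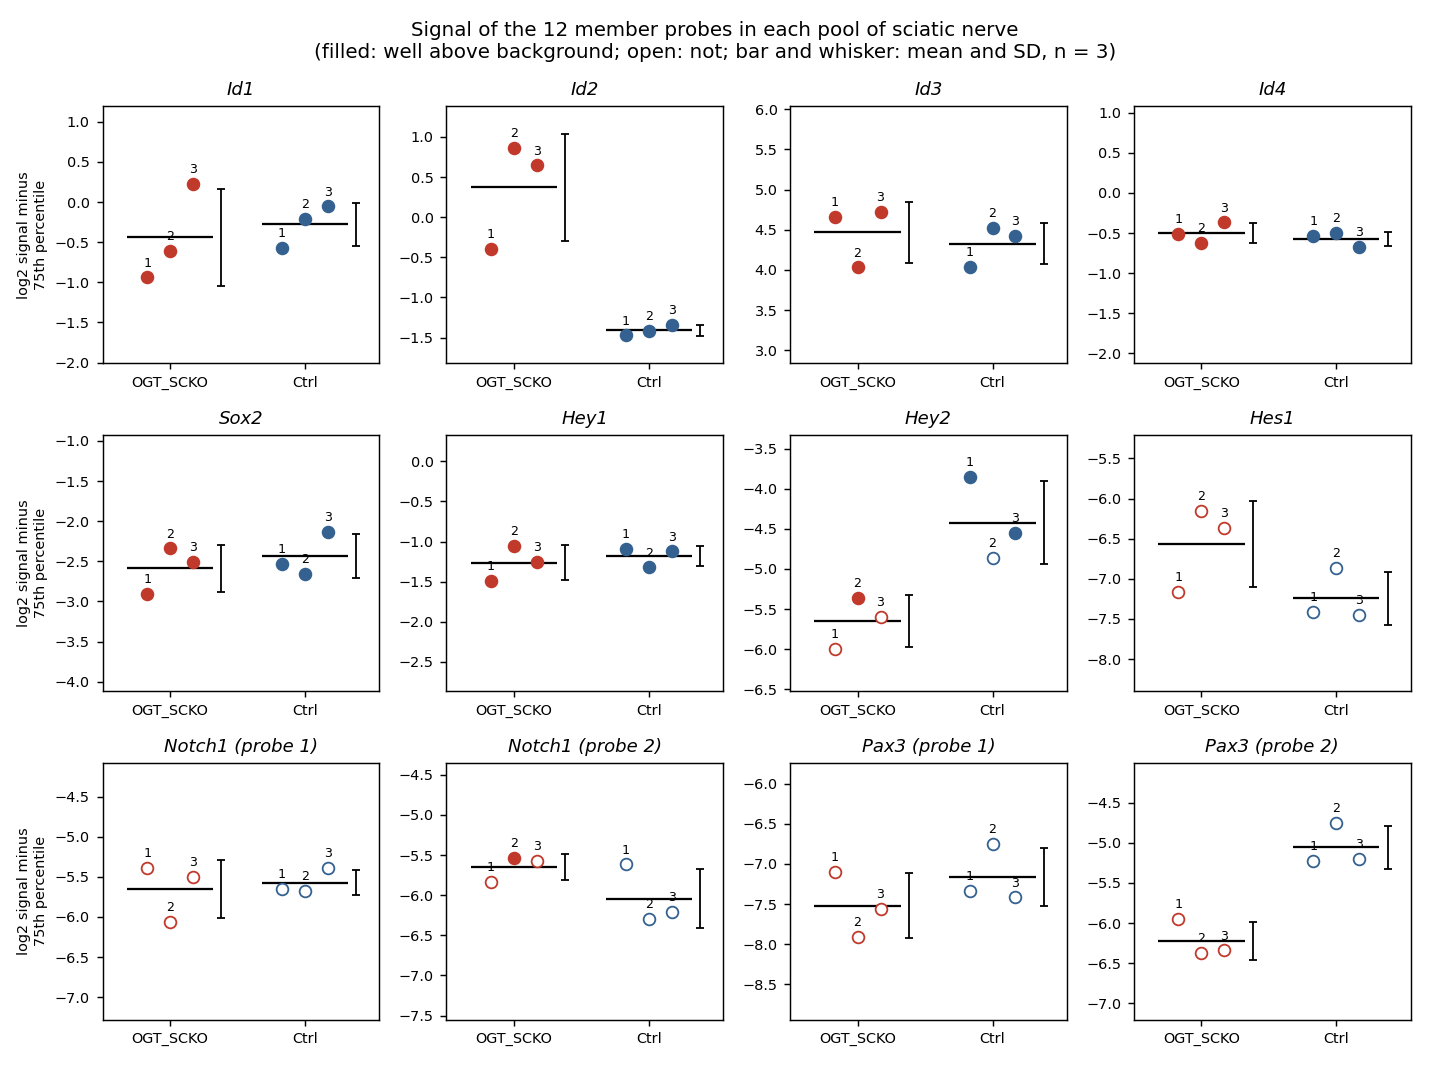
Signal of each of the 12 probes in each pool, as log2 signal minus the array's 75th percentile, with OGT_SCKO left of Ctrl and pools numbered 1 to 3. Filled points were well above background and open points were not, bars are means and whiskers SDs (n = 3), and every panel spans at least 3.2 log2 units on its own axis. Id2 is the filled panel in which the groups stand apart, with OGT_SCKO pools between -0.39 and 0.86 and Ctrl pools between -1.47 and -1.34.

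Other members of the Id family did not pass the test. Id1, which BMP signals induce in many cells, had levels of -0.94, -0.61 and 0.23 in OGT_SCKO pools and -0.58, -0.21 and -0.06 in Ctrl pools. The groups overlapped, and OGT_SCKO pool 3 was the highest and pool 1 the lowest of all 6 pools. Its log2 fold change was -0.16 (SE 0.31, limma adjusted p = 0.728). Id3 had 4.65, 4.03 and 4.72 in OGT_SCKO pools and 4.04, 4.53 and 4.42 in Ctrl pools, so its groups overlapped as well. The log2 fold change of Id3 was 0.14, with a 95% confidence interval of -0.40 to 0.67 (limma adjusted p = 0.674).

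Id4, like Id2 a described inhibitor of oligodendrocyte differentiation, varied little among pools. Its level was -0.51, -0.62 and -0.37 in OGT_SCKO pools, against -0.54, -0.50 and -0.67 in Ctrl pools. The pools of both groups were interleaved, and the interval of the ratio ran from 0.870 to 1.27 (limma adjusted p = 0.668). For Id1 that interval ran from 0.537 to 1.49, so a change of its level of that size in either direction is not excluded by these pools.

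Because every array carries all 4 Id probes, the change of Id2 can be set against its family within each pool, which a scaling factor per array leaves unchanged. Id2 minus the mean of Id1, Id3 and Id4 was -1.46, -0.08 and -0.88 log2 units in OGT_SCKO pools 1, 2 and 3, against -2.45, -2.69 and -2.57 in Ctrl pools 1, 2 and 3. The groups did not overlap. The mean was -0.81 ± 0.70 in OGT_SCKO and -2.57 ± 0.12 in Ctrl (SD, n = 3 each), so the change of Id2 exceeded the mean change of its relatives by 3.39-fold (exact two-sided permutation p = 0.1, the smallest possible). This contrast was chosen after the values were seen. The mean of the relatives changed little, so the contrast repeats the Id2 difference and is no separate evidence. Its OGT_SCKO values keep the order of array brightness, lowest in pool 1 and highest in pool 2, as those of Id2 alone do.

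Sox2, an inhibitor of myelination that also marks neural stem cells, had levels of -2.91, -2.34 and -2.50 in OGT_SCKO pools, against -2.53, -2.65 and -2.13 in Ctrl pools. The groups overlapped. Its log2 fold change was -0.15 (SE 0.20, limma adjusted p = 0.619), and the interval of the ratio ran from 0.647 to 1.26. Hey1, a repressor switched on by Notch, had -1.49, -1.05 and -1.26 in OGT_SCKO pools, against -1.09, -1.32 and -1.12 in Ctrl pools. These overlapped too, with a log2 fold change for Hey1 of -0.09, an SE of 0.14 (limma adjusted p = 0.687) and an interval of the ratio from 0.742 to 1.20. Over the 6 tested members the median log2 fold change was -0.01, against -0.07 over all genes.

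**Figure D2:**
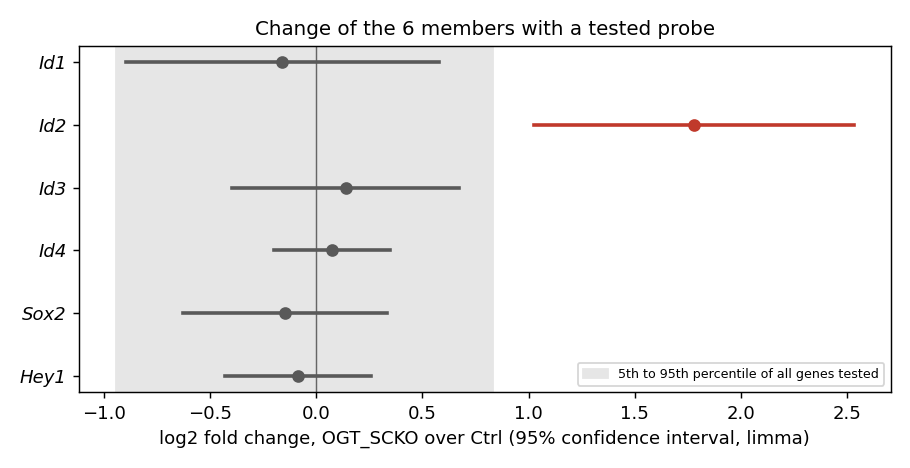
Log2 fold change of OGT_SCKO over Ctrl for the 6 tested members, with the 95% confidence interval of the limma fit; the grey band holds the middle of all 19058 genes tested, from the 5th percentile (-0.94) to the 95th (0.83). Id2 lies above the band at 1.78, and the other members span 0.

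Hey2, another Notch-driven repressor and a gene of arterial endothelium, was dim. It was well above background on 1 of 3 OGT_SCKO arrays and 2 of 3 Ctrl arrays. Its processed signal was 54.2, 150.3 and 99.0 in OGT_SCKO pools 1, 2 and 3, against 287.2, 94.5 and 183.7 in Ctrl pools 1, 2 and 3. Set against each array's 75th percentile, all OGT_SCKO pools lay below all Ctrl pools. The highest OGT_SCKO level was -5.36 and the lowest Ctrl level -4.86 on the log2 scale. Of the genes tested, which do not include Hey2, 45.8% had no overlap in either direction. A fit with no filter on dim probes gave a p for 30324 of the 30325 names and called 8.66% of them. There the log2 fold change of Hey2 was -1.23 (SE 0.30, limma adjusted p = 0.0568), which did not pass. The median log2 fold change over all names in that fit was -0.24, against -0.07 with the filter.

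Hes1, the best known Notch target, was flagged well above background on none of the arrays. Its processed signal was 24.1, 86.3 and 58.1 in OGT_SCKO pools, against 24.4, 23.6 and 24.6 in Ctrl pools. The dimmest probe well above background had a signal of at most 112 on these arrays, so the Hes1 probe gives only an upper bound in both groups and no fold. OGT_SCKO pools 2 and 3, whose arrays were the brightest of all, were the pair that stood above the rest. Notch1, the receptor, was read by 2 dim probes on chromosome 2. The probe at chr2:26314630-26314689 (mm9) had signals of 82.5, 91.8 and 105.8 in OGT_SCKO pools, against 82.5, 53.7 and 102.7 in Ctrl pools, none well above background. The probe at chr2:26319440-26319499 had 60.7, 132.4 and 100.8 in OGT_SCKO pools, against 84.6, 34.9 and 58.2 in Ctrl pools, and passed on OGT_SCKO 2 alone. The groups overlapped on both probes.

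Pax3, a paired-box factor of neural crest and immature Schwann cells, was likewise flagged well above background on none of them. The probe at chr1:78099294-78099353 (mm9) had signals of 56.1, 74.5 and 59.3 in OGT_SCKO pools, against 111.1, 101.9 and 117.5 in Ctrl pools, with no overlap between groups. Of the genes tested, which do not include Pax3, 45.8% had no overlap in either direction. The probe at chr1:78099476-78099535 stood at 25.3, 25.6 and 25.5 in OGT_SCKO pools and 25.7, 25.5 and 25.2 in Ctrl pools. In the fit with no filter on dim probes, 8.66% of names were called and the median log2 fold change was -0.24. Pax3 passed there through the probe at chr1:78099294-78099353 (limma adjusted p = 0.0201), but neither group was well above background, so no fold is given. Pax3 is also a gene of muscle satellite cells and melanocytes, and markers of both were measured here. Of 7 satellite cell markers 3 were tested, and Pax7, Myf5, Myod1 and Calcr were well above background on none of the arrays; their list's summed level ran from 1.33 to 1.56 in OGT_SCKO pools and from 1.35 to 1.44 in Ctrl pools. Of 6 melanocyte markers 5 were tested and Dct was not, with summed levels of 2.59 to 2.79 in OGT_SCKO pools, against 3.12 to 3.45 in Ctrl pools. In these lists limma called none, with 1 and 0 genes at an unadjusted p under 0.05. Of the tested members, the probes lie on mm9 at chr12:25778904-25778963 for Id2, chr2:152563083-152563142 for Id1, chr4:135700075-135700249 for Id3, chr13:48358668-48358727 for Id4, chr3:34550773-34550832 for Sox2 and chr3:8663432-8663491 for Hey1. What the annotation holds at these places was not looked up.

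Ligands and receptors of the Notch pathway moved in both directions. Of 9 other ligands and receptors tested, 3 rose, 2 fell and 4 did not pass, with a median log2 fold change of -0.03. Over all genes, 23.2% were called. Dll4, a ligand of growing vessels, fell 2.48-fold (limma adjusted p = 0.00565), and Dlk1, a non-canonical ligand that restrains fat cell formation, fell 4.54-fold (adjusted p = 0.00175). Notch4, a receptor of endothelium, rose 1.88-fold (adjusted p = 0.00173). Its levels were -1.18, -1.20 and -1.17 in OGT_SCKO pools, against -2.18, -2.04 and -2.05 in Ctrl pools, with no overlap. Dll3, a ligand that blocks Notch within the cell that makes it, rose 2.19-fold (limma adjusted p = 0.0139), and its other kept probe gave a larger log2 fold change of 2.82. Jag1, a ligand that activates Notch, rose 1.41-fold (adjusted p = 0.0413).

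Among these ligands and receptors, with slide as a block the log2 fold changes of Dll4, Dlk1, Notch4 and Dll3 were -1.53, -2.12, 0.86 and 1.57 (limma adjusted p = 0.0344, 0.0309, 0.0369 and 0.0184), and within slide 1 none of them passed (0.0954, 0.0802, 0.116 and 0.0652). The call of Jag1 ended with the block (0.156), within slide 1 (0.242) and without Ctrl 2 or 3 or any 1 OGT_SCKO pool (0.0559 to 0.142), and that of Dll3 without OGT_SCKO 3 (0.0543).

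Genes whose products cut, sort or decorate Notch were called in both directions. Of 17 genes of Notch processing, 1 rose, 2 fell and 14 did not pass, where 11.1% of all genes were called higher and 12.1% lower. Adam10, the protease of the first cut after ligand binding, fell by 0.59 on the log2 scale (limma adjusted p = 0.0128), and Aph1b, a subunit of gamma-secretase, fell by 0.75 on that scale (adjusted p = 0.00583), though its other kept probe did not pass (0.119). Dtx1, a ubiquitin ligase of the pathway, rose 1.33-fold (adjusted p = 0.0485). Of 6 enzymes that glycosylate the Notch ectodomain, 1 rose, 2 fell and 3 did not pass. Lfng, a fringe that alters which ligands Notch answers, rose 1.85-fold (adjusted p = 0.0321). Rfng, another fringe, fell 1.42-fold (0.0211) and Poglut1, which adds glucose to Notch, fell 1.36-fold (0.0312). Eogt, which attaches O-GlcNAc to extracellular proteins such as Notch and is distinct from Ogt, had a log2 fold change of -0.11, with an SE of 0.15 (limma adjusted p = 0.626).

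Most of these calls ended when 1 pool was left out. With slide as a block Lfng alone of these 6 still passed (log2 fold change 1.35, limma adjusted p = 0.0209). Leaving out OGT_SCKO 3 ended the calls of Adam10, Dtx1, Lfng, Rfng and Poglut1 (limma adjusted p = 0.0524, 0.0916, 0.0867, 0.0802 and 0.0862). Those of Dtx1, Poglut1 and Rfng also ended without Ctrl 1, 2 or 3 (0.0607 to 0.164), that of Lfng without Ctrl 3 or OGT_SCKO 2 (0.0661 and 0.0602), those of Dtx1 and Poglut1 without OGT_SCKO 1 (0.0801 and 0.0529) and that of Dtx1 without OGT_SCKO 2 (0.0783). The call of Adam10 ended too with quantile normalisation (0.0665), with normexp (0.101) and on the deposited log2 values (0.0720).

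In the nucleus, none of 11 tested genes of the RBPJ complex and its co-repressors was called by limma, with 1 at an unadjusted p under 0.05. Over all genes, 23.2% were called, the share to set beside these 11 genes and the 6 Notch targets below. Rbpj itself had levels of -0.01, -0.18 and -0.29 in OGT_SCKO pools, against 0.12, 0.02 and 0.12 in Ctrl pools (log2 fold change -0.25, SE 0.11, limma adjusted p = 0.161). Of 6 further Notch targets tested, Ccnd1, the G1 cyclin, which many pathways induce, rose 2.78-fold (limma adjusted p = 0.000684, and 0.00940 with slide as a block). The other 5, Hes7 (log2 fold change -0.90), Hes2 (-0.62), Heyl (-0.31), Hes6 (0.11) and Myc (0.19), did not pass. Hes5 and Hes3 were well above background on none of the arrays.

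HLH factors that Id proteins can bind or that act beside them were tested for 11 genes, of which Scx and Olig1 entered through the OGT_SCKO arrays alone. Of the other 9, limma called none, with 0 at an unadjusted p under 0.05, among them the E proteins Tcf3, Tcf4 and Tcf12, to which Id proteins bind, with log2 fold changes of 0.01, -0.03 and 0.17. Scx, a factor of tendon and connective tissue cells, was well above background on none of the Ctrl arrays, and its OGT_SCKO level was higher by at least 5.40-fold; in the fit with no filter, which also rests on its dim Ctrl values, the adjusted p of limma was 0.00295. Olig1, well above background on all OGT_SCKO arrays and no Ctrl array, did not pass (adjusted p = 0.299). BMP signals commonly induce Id genes. Of 14 tested genes of that pathway, which are 5 ligands, 4 receptors, Smad1, Smad5, the inhibitory Smad6 and the antagonists Nog and Chrd, the ligand Bmp7 fell 1.63-fold (limma adjusted p = 0.00348, and 0.0508 with slide as a block). The other 13 did not pass, and the list's median log2 fold change was -0.25. Of the 14, 4 had an unadjusted limma p under 0.05. Over all genes, 23.2% were called, the share to set beside this list and the 9 HLH factors.

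**Figure D3:**
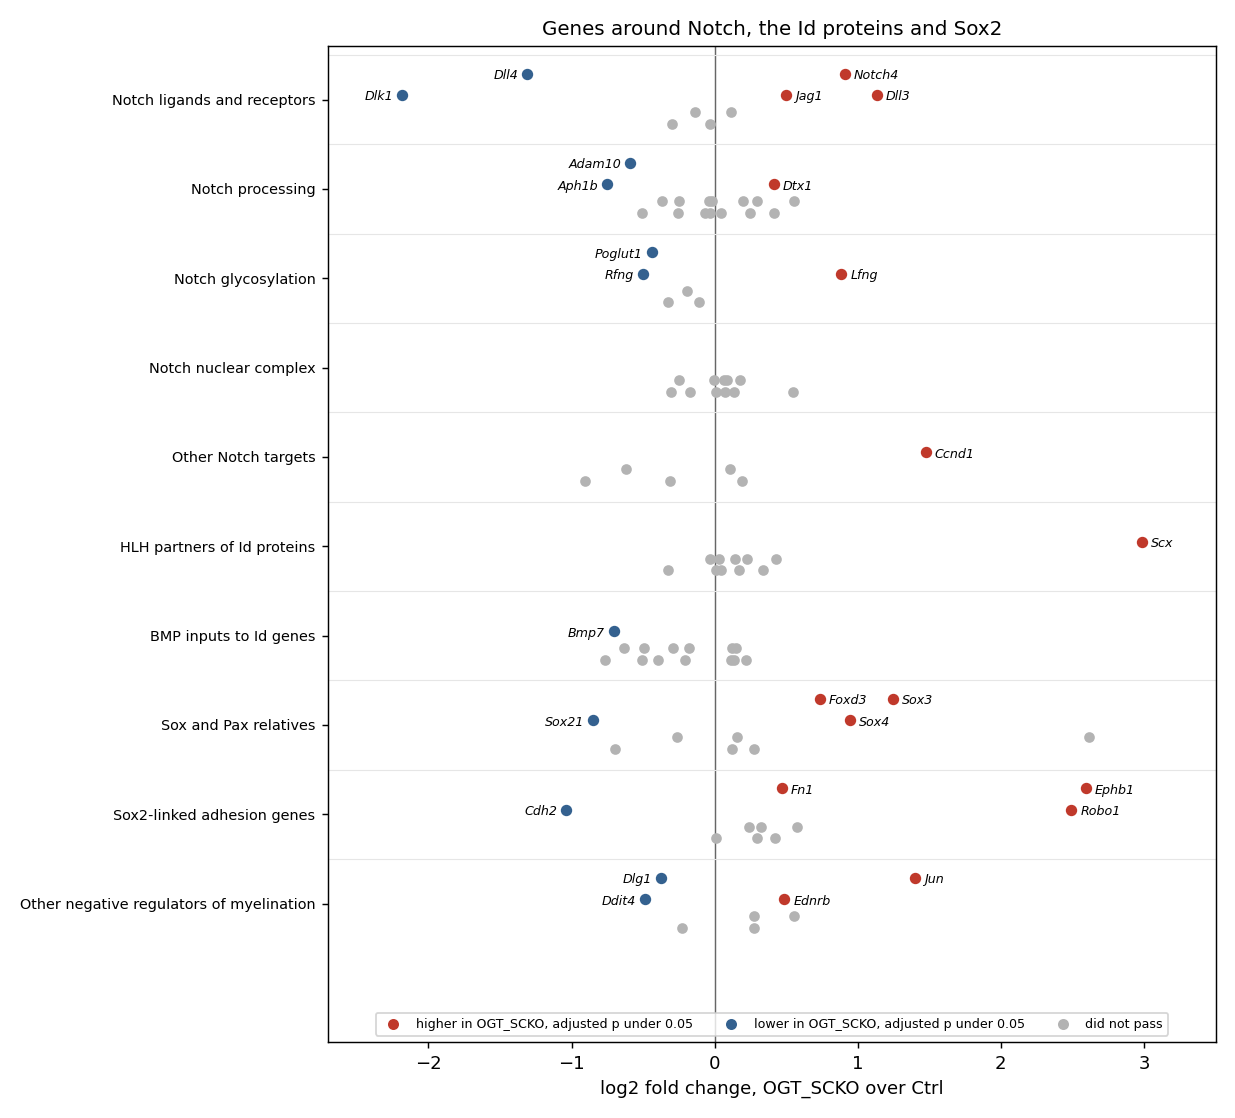
Log2 fold change of OGT_SCKO over Ctrl for each tested gene of 10 lists, 1 point a gene, with called genes coloured and named and the rest in grey. Scx and Robo1 were not well above background in Ctrl, so their points depend on dim values; the row for the nuclear complex holds 0 coloured points, and the row named for Sox and Pax relatives holds 9 Sox genes and Foxd3.

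Sox genes other than Sox2 were called in both directions. Of 9 Sox genes and Foxd3, 3 rose, 1 fell and 6 did not pass, against 23.2% of all genes called. Pax6 and Pax7 were not tested. Sox3, of the same subgroup as Sox2, rose 2.37-fold (limma adjusted p = 0.00245, and 0.0385 with slide as a block), with levels of -3.63, -3.33 and -3.36 in OGT_SCKO pools, against -4.74, -4.46 and -4.85 in Ctrl pools. Sox1, of that subgroup too, had a log2 fold change of -0.69, with an SE of 0.34 (limma adjusted p = 0.181), and did not pass. Sox4, whose prolonged expression delays myelination in mice, rose 1.93-fold (adjusted p = 0.0138). Foxd3, a neural crest factor, rose 1.67-fold (adjusted p = 0.0464), and Sox21 fell 1.80-fold (0.0260). Sox10, needed at all stages of the Schwann cell lineage, had a log2 fold change of -0.27 with an SE of 0.24 (limma adjusted p = 0.438). The calls of Sox4, Foxd3 and Sox21 ended in the fit blocked on slide (0.140, 0.144 and 0.217). Without Ctrl 1 or 3 the calls of Sox4 (0.0550 and 0.0600), Foxd3 (0.122 and 0.0932) and Sox21 (0.0892 and 0.0944) ended, as did those of Foxd3 and Sox21 without OGT_SCKO 3 (0.0998 and 0.0982) and that of Foxd3 without Ctrl 2 (0.136).

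In repairing nerve, Sox2 acts with Eph receptors, N-cadherin and fibronectin to hold Schwann cells together. Of 10 tested genes of that kind, Robo1 entered through the OGT_SCKO arrays alone. Of the other 9, 2 rose, 1 fell and 6 did not pass, against 23.2% of all genes called. Ephb1, an Eph receptor, rose 6.04-fold, with levels of 1.20, 1.51 and 1.35 in OGT_SCKO pools, against -1.22, -1.17 and -1.32 in Ctrl pools (limma adjusted p = 0.000166, and 0.0211 within slide 1). Ephb2, the receptor described upstream of Sox2 in rat nerve, did not pass (log2 fold change 0.24, SE 0.35, limma adjusted p = 0.646). Robo1, a Slit receptor, was likewise well above background on none of the Ctrl arrays, and its OGT_SCKO level was higher by at least 1.49-fold, with an adjusted p of 0.00830 by limma in the fit with no filter. Fn1, fibronectin, rose 1.38-fold (0.0233), and Cdh2, N-cadherin, fell 2.05-fold (0.0156). The calls of Fn1 and Cdh2 ended with slide as a block (0.0975 and 0.0569), without Ctrl 2 (0.0861 and 0.0511), without Ctrl 3 (0.0783 and 0.0651) and without OGT_SCKO 3 (0.0657 and 0.0526), and that of Fn1 without Ctrl 1 (0.0656).

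Other inhibitors of myelination were called in both directions. Of 8 tested, 2 rose and 2 fell, against 23.2% of all genes called. Jun rose 2.64-fold, with levels of 1.38, 1.66 and 1.69 in OGT_SCKO pools, against 0.17, 0.17 and 0.19 in Ctrl pools (limma adjusted p = 0.000717). As with Id2, OGT_SCKO pool 1 was the lowest of its group and the Ctrl pools lay close together. OGT_SCKO pools 2 and 3 stood in the other order than for Id2, and a link between these genes was not tested. Ednrb, the endothelin receptor of immature Schwann cells, rose 1.40-fold (adjusted p = 0.0284), and its other kept probe did not pass (0.411). Dlg1 and Ddit4, which limit myelin growth, fell 1.30-fold and 1.40-fold (0.0324 and 0.0453), although 1 of the 3 kept Dlg1 probes gave a log2 fold change of -0.09. Zeb2, a repressor of Sox2, Ednrb and Hey2 in Schwann cells, did not pass (log2 fold change -0.23, SE 0.10, limma adjusted p = 0.152). Egr2, the activator of myelin genes that the inhibitors oppose, had a log2 fold change of -0.04 (SE 0.15, adjusted p = 0.868). The calls of Ednrb, Dlg1 and Ddit4 ended with slide as a block (0.220, 0.158 and 0.111), without any 1 of the Ctrl pools (0.0584 to 0.141) and without OGT_SCKO 3 (0.0894 to 0.143), as did that of Dlg1 without OGT_SCKO 1 (0.0510) and that of Ddit4 without OGT_SCKO 2 (0.0836).

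Markers of cell types were tested too, where 12.1% of all genes were called lower and 11.1% higher in OGT_SCKO. Of 10 Schwann cell markers, 2 fell and 8 did not pass, and all 10 were well above background on every array. The calls of those 2, S100b and Prx, ended with slide as a block (0.0933 and 0.131) and without OGT_SCKO 3 (0.0516 and 0.103), and that of Prx also without OGT_SCKO 2 or any 1 Ctrl pool (0.0542 to 0.122). The summed level of that list, relative to the 75th percentile, ran from 355 to 573 in OGT_SCKO pools and from 561 to 741 in Ctrl pools. Of 12 endothelial markers, 2 fell (Vwf, whose other kept probe did not pass, and Egfl7) and 10 did not, with summed levels of 25.5 to 31.9 in OGT_SCKO pools, against 37.5 to 41.8 in Ctrl pools. Vwf and Egfl7 did not pass when blocked on slide (0.0876 and 0.193) or without any 1 Ctrl pool (0.0525 to 0.130), nor did Egfl7 without OGT_SCKO 1 (0.0626) or 2 (0.0665). Members shared with vessels are Hey1, Hey2, Id1, Id3 and Notch1, besides the ligand Dll4, which fell, and the receptor Notch4, which rose. The part of vessel content in their values was not tested. Of 5 tested fat cell markers 4 fell, with summed levels of 0.201 to 0.648 in OGT_SCKO pools, against 1.06 to 4.41 in Ctrl pools, and of 6 tested muscle fibre markers 5 fell. The fat cell marker Cidec entered through the Ctrl arrays alone. It was well above background on 1 OGT_SCKO array, so the size of its fall rests on dim values. Of the fat cell markers with the smallest p, Cidec and Fabp4 lost their calls without Ctrl 2 (0.0550 and 0.0747), without Ctrl 3 (0.0650 and 0.0876) and when blocked on slide (0.0630 and 0.0721). Of 8 mural cell markers 1 rose and 2 fell, and of 8 fibroblast markers 2 fell. Of 10 macrophage markers, limma called none, with 2 at an unadjusted p under 0.05. Of the 10 cell type lists, 9 had a lower mean summed level in OGT_SCKO and 1, that of satellite cells, a higher one (ratio 1.04). The satellite cell list rests on 3 tested genes, whose median log2 fold change was -0.34. In every list the sum was lowest on OGT_SCKO 2, the brightest array (75th percentile 6158). It was highest on Ctrl 2, the dimmest (2748), in all but the muscle fibre and satellite cell lists. The parts of array brightness and of tissue make-up in any of the values above were not tested.

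**Figure D4:**
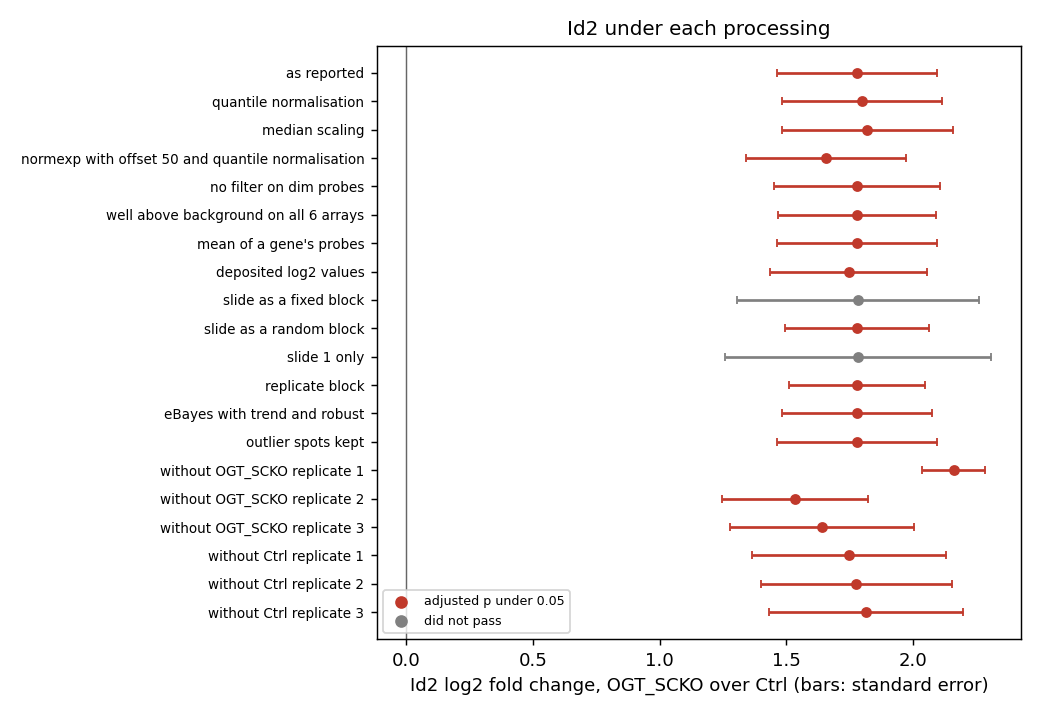
Log2 fold change of Id2, OGT_SCKO over Ctrl, as reported and under 19 other settings, with bars of 1 standard error; red points passed at an adjusted p under 0.05 and grey points did not. The estimate stays between 1.53 and 2.16, and the grey points are the fits with slide as a fixed block and on slide 1 alone. These grey fits share 1 contrast, OGT_SCKO against Ctrl 2. Id2 has 1 probe of 1 spot in a balanced design. Filters on dim probes, averaging of probes, the replicate block and the variance model therefore cannot move its estimate, and kept outlier spots did not.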

How the data were processed

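Total RNA of sciatic nerve was labelled with Cy5, and each array held 1 pool. Spot intensity values and the 0 or 1 flags for background, saturation and outliers came, per the file headers, from Agilent Feature Extraction, version 11.5.1.1 per the submitters' processing notes. The deposited intensity values were background-subtracted, detrended and not normalised between arrays. The deposited log2 table has 1 distribution in all columns and correlated with log2 of the processed signal at 0.996 or more across probes on each array; its centring and further steps are not given in the sources used here.

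Control and outlier spots were left out, spots of a probe were averaged, and each array was scaled by its 75th percentile. Of 39429 probes, 24287 passed the background flag throughout 1 group or both and were kept. The kept probe with the highest mean stood for its gene (19058 genes). Probes were named through their accession in RefSeq GRCm38.p6 (27655 matched) or else by the files. The main model was fitted in R 4.3.3 by limma 3.58.1 without covariates, and p-values were adjusted by Benjamini-Hochberg over all genes. Scripts were tested on simulated data. The share of probes well above background ran from 58.9% to 65.2% by array, and 0 spots were saturated. The number of arrays limits the precision, and p-values reflect only how far pools differ.

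The members and gene lists were chosen with earlier results of these data known. Named were all members, up to 4 called genes with the smallest p per pathway list and 2 per cell type list, and Rbpj, Jag1, Zeb2, Tcf4, Sox10, Egr2, Jun and Ogt. Other genes named (Eogt, Ephb2, Olig1, Heyl, Hes2, Hes3, Hes5, Hes6, Hes7, Myc, Tcf3, Tcf12, Sox1, Smad1, Smad5, Smad6, Nog, Chrd, Pax6, Pax7, Myf5, Myod1, Calcr and Dct) lie outside that rule and were chosen after their values were seen. Bounds set the bright group's mean against a limit averaged over the dim arrays, on each the lowest value well above background or, where larger, the probe's value. The perineurial list gave 1 call of 5 by limma. The alternatives were other scaling (quantile, median), normexp background correction with an offset of 50, other filters on dim probes, averaging all probes of a gene, using the deposited log2 table, slide or replicate number as a block, slide 1 alone, another variance model, kept outlier spots and leaving out each array.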

Additional observations from a re-analysis of the deposited data

How the results depend on the processing

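The count of called members was 1 of 6 as reported and in the 6 fits that leave out an array (1 to 1), and Id2 was that gene each time. It was 2 of 10 with no filter on dim probes, where Pax3 joined, and 0 by limma with slide as a block or on slide 1 alone, with 1 member at an unadjusted p under 0.05 in both. The cause of the lost call was not tested. Both fits set OGT_SCKO against Ctrl 2 alone, and the log2 fold change of Id2 was 1.78 in both, as in the main fit. In the block fit, Ctrl 1 and Ctrl 3 bear on the variance but not on this estimate, and the fit on slide 1 leaves them out. With slide as a random block Id2 kept its call (limma adjusted p = 0.00585) and 5233 genes were called. Over all genes the count was 4421 as reported, 2627 with no filter, 1215 with slide as a block, 401 on slide 1 alone and 1975 to 5522 leaving out 1 array. The lower counts came without OGT_SCKO 3 (1975), Ctrl 1 (2447), Ctrl 2 (2549) and Ctrl 3 (2091).

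The replicate numbers were not taken as pairs in the main model. Deviations of same-numbered pools from their group means correlated across genes at -0.27, -0.53 and 0.06. Those of differently numbered pools correlated at -0.41 to 0.46. With 3 pools a group these correlations cannot show whether pools were paired. With a replicate block 1466 genes were called, 1449 of them shared, and Id2 kept its call (log2 fold change 1.78, limma adjusted p = 0.0342). The replicate block ended the calls of 21 of the 45 genes named by rule: Jag1, Adam10, Dtx1, Poglut1, Lfng, Rfng, Sox4, Foxd3, Cdh2, Fn1, Ednrb, Dlg1, Ddit4 and 8 cell type markers. No named gene that was called changed direction under any alternative. Of the called genes named from the pathway lists, 11 of 26 passed in all 6 fits that leave out an array, 11 with slide as a block and 3 (Scx, Ephb1 and Ccnd1) on slide 1 alone, Scx and Robo1 being counted although they entered through OGT_SCKO alone. Other settings ended smaller calls: quantile normalisation and the deposited values those of Adam10, Ddit4, Prx and Egfl7, normexp those of Adam10, Ddit4 and Prx, median scaling those of Poglut1, Foxd3, Dlg1 and Egfl7, the variance model with trend that of Prx, and averaging probes those of Ednrb and Vwf. With no filter on dim probes, where more genes are tested, those of Jag1, Dtx1, Poglut1, Lfng, Rfng, Sox21, Foxd3, Fn1, Ednrb, Dlg1, Ddit4, Prx, Vwf, Egfl7 and Fabp4 ended. Signal over background limits Hes1, Notch1, Pax3 and Hey2, for which the arrays cannot show a difference of moderate size.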
